A study of Mus musculus with 8 samples.

Results

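Trem1, Trem3, Clec4d, Clec4e, Fpr1, Fpr2, Itgam, Ltf and Ngp are 9 genes of myeloid cells, 7 of them activation receptors at the cell surface and the other 2 proteins of neutrophil granules. They were chosen by gene symbol from a count table of 22740 protein-coding genes, and all 9 were listed in it. Their levels were followed by RNA sequencing in the skin of 8 female BALB/c mice, aged 6-8 weeks, with 1 library from each mouse and 4 groups of 2 mice. All groups were fed a low-fibre diet. Butyrate mice drank 400 mM sodium butyrate, the salt of a short-chain fatty acid, from 2 weeks before allergen exposure until the end, while the CTL groups were given plain water. Lesional skin came from mice that had received house dust mite (HDM) allergen on the skin, in 4 doses of 15 µg over 2 weeks, which gives an inflammation like atopic dermatitis, and baseline skin came from mice that had received none. The mice are named by their label numbers: 1 and 2 in baseline CTL, 1 and 3 in baseline butyrate, 4 and 5 in lesional CTL and 3 and 4 in lesional butyrate. The labels of baseline and lesional mice also carry different set numbers, so HDM exposure and the set of mice cannot be told apart.

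Neutrophils are the first blood leukocytes to enter inflamed skin, and they detect microbes and damaged tissue through surface receptors. TREM receptors and the C-type lectin Mincle (Clec4e) have no signalling motif of their own and signal through adaptor proteins with an activating motif (Tyrobp for TREM1, Fcer1g for Mincle), while formyl peptide receptors are coupled to inhibitory G proteins and guide migration. Most of these receptors are also found on monocytes and macrophages, whereas lactoferrin (Ltf) and neutrophilic granule protein (Ngp) belong to secondary granules, whose genes are transcribed while neutrophils mature in the bone marrow.

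Values are CPM (gene counts set relative to the total of the library, scaled by the trimmed mean of M values, TMM), and library totals were between 18004136 and 21085544 counts. In a library of this depth 3 counts, taken as the floor of detection, were worth 0.138 to 0.169 CPM. Baseline butyrate mouse 3 stood apart from the other mice. Its 6 hair follicle keratins summed to 9960 CPM against 1.02 to 3.67 CPM in the other 7 mice, its 12 macrophage markers to 432 CPM against 938 to 2060.4 CPM, and its keratinocyte and skeletal muscle markers were also the lowest. Of genes with at least 1 CPM, 3677 of 14067 were more than 2-fold apart between the baseline butyrate mice, against 167 to 619 in the other groups. The part of this mouse in the results was not tested, and results that rest on it are given with and without it. In whole skin, fewer cells of a type and less RNA per cell cannot be told apart.

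For 4 receptor genes with a large difference between baseline and lesional CTL skin (values below), the 300 bases around the transcription start, 250 before and 50 after it, are shown as given by RefSeq on GRCm38.p6, 5′ to 3′ on the strand of the gene. Capitals mark matches, on either strand, to 2 motifs of myeloid transcription factors: GAGGAA, a core of PU.1 sites, and TTNNGNAA, a pattern of C/EBP sites. They are shown because these 4 genes rose in lesional CTL skin. The windows are chr17:48232489-48232788 (plus strand) for Trem1, chr6:123261857-123262156 (plus) for Clec4d, chr6:123289822-123290121 (minus) for Clec4e and chr17:17883890-17884189 (minus) for Fpr1.
Trem1: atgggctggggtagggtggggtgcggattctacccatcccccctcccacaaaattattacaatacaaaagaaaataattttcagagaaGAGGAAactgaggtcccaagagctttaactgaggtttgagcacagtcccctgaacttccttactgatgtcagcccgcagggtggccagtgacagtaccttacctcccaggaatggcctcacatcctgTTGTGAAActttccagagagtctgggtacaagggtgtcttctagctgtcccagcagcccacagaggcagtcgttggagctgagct
Clec4d: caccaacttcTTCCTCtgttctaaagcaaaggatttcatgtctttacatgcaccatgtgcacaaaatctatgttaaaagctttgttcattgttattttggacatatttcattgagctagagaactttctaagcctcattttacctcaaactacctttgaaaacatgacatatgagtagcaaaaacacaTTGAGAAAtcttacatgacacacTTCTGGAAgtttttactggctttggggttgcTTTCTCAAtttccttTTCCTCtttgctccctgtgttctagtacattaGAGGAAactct
Clec4e: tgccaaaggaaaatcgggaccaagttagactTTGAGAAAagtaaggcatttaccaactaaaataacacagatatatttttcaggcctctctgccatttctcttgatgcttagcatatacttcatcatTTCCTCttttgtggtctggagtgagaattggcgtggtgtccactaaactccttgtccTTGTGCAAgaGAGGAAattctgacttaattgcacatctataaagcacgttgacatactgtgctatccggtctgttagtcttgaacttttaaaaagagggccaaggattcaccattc
Fpr1: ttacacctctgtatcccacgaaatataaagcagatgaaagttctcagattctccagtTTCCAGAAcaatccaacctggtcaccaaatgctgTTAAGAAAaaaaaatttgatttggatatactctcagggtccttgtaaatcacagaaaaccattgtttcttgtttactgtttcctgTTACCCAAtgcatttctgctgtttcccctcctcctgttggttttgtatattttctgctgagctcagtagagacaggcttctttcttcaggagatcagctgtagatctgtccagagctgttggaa

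A promoter was matched for 8 of the 9 genes, all but Trem3. The TTNNGNAA pattern was found in 8 of 8, and 40.7% of all 32817 promoters held it. The GAGGAA motif was found in 6 of 8, all but Fpr1 and Ngp, against 28.3% of all promoters. Clec4d and Itgam had 3 GAGGAA matches each. In Itgam 1 of them overlapped a TTNNGNAA match. TATAAA was found in Clec4e, Fpr1 and Fpr2 (13.6% of all promoters), in Clec4e at 29 bases before the start. No match to TGANTCA (AP-1, 7.81% of all promoters) or to the NF-kB motif (4.5%) was found in the 8 windows, which says only that these letters are not in them.

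Trem1 amplifies inflammatory signals of other receptors on neutrophils and monocytes. It lies on chromosome 17 from 48232768 to 48246924 (plus strand), and another annotated gene overlaps it on the opposite strand. Its level was 0 and 0.111 CPM in the baseline CTL mice (0 and 2 counts), 0.0564 and 0.234 CPM in the baseline butyrate mice (1 and 5 counts), 14.4 and 26.2 CPM in lesional CTL skin (269 and 567 counts) and 1.67 and 1.86 CPM in lesional butyrate skin (35 and 40 counts). It was near the floor in baseline skin, highest in both lesional CTL mice and intermediate in both lesional butyrate mice, and the lesional groups overlapped neither each other nor baseline skin. The mean in lesional butyrate skin was 8.71% of that in lesional CTL skin, the lowest share among the 7 receptor genes.

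Trem3, on chromosome 17 from 48247777 to 48258841, is a neighbour of Trem1 on the same strand and encodes a related activating receptor. It was at 0 and 1 count in the baseline CTL mice and at 0 in both baseline butyrate mice. It reached 1.28 and 2.4 CPM in lesional CTL skin (24 and 52 counts) against 0.239 and 0.419 CPM in lesional butyrate skin (5 and 9 counts). Both lesional groups lay above baseline skin, as for Trem1, and again did not overlap.

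Clec4d (Dectin-3) and Clec4e (Mincle) are C-type lectins that recognise fungal and mycobacterial glycolipids, and Mincle also senses dead cells. They are neighbours on chromosome 6, Clec4d from 123262111 to 123275265 (plus strand) and Clec4e from 123281789 to 123289870 (minus strand). Clec4d measured 1.06 and 1.05 CPM in the baseline CTL mice, 1.58 and 0.655 CPM in the baseline butyrate mice, 25.2 and 34.6 CPM in lesional CTL skin, and 5.15 and 5.44 CPM in lesional butyrate skin. Clec4e measured 0.667 and 1.17 CPM, 0.28 and 1.3 CPM (baseline butyrate mice 3 and 1), 18.9 and 29.2 CPM and 3.05 and 5.58 CPM in the same groups. Both genes were highest in the 2 lesional CTL mice and next in the 2 lesional butyrate mice, with no overlap, while the baseline groups overlapped. The share left in lesional butyrate skin was 17.7% for Clec4d and 17.95% for Clec4e.

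Fpr1 and Fpr2 bind formylated peptides of bacteria and mitochondria, and Fpr2 also binds annexin A1 and serum amyloid A. They are neighbours on chromosome 17, Fpr1 from 17876471 to 17883940 (minus strand) and Fpr2 from 17887824 to 17893952 (plus strand). Fpr1 measured 0.222 and 0.888 CPM in the baseline CTL mice, 0.113 and 0.0468 CPM in the baseline butyrate mice, 3.74 and 6.14 CPM in lesional CTL skin, and 0.907 and 0.837 CPM in lesional butyrate skin. The lesional butyrate mice overlapped with the baseline CTL mice and lay above the baseline butyrate mice, which held 2 and 1 counts. Fpr2 measured 1.61 and 4.27 CPM, 2.48 and 0.374 CPM, 10.2 and 13.0 CPM, and 1.72 and 2.93 CPM in the same order of groups. For Fpr2 the lesional CTL mice were above all other mice, and the lesional butyrate mice lay within the range of the baseline CTL mice. Fpr3 is annotated over Fpr2 on the same strand, and Fpr3 and 4 Fpr-rs genes were at 0 counts in all 8 mice.

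Itgam, the alpha chain of the beta2 integrin Mac-1 (CD11b), serves adhesion and uptake of complement-coated particles in neutrophils, monocytes and macrophages. It lies on chromosome 7 from 128062640 to 128118491, and another annotated gene overlaps it on the same strand, so its counts are uncertain where the exons are shared. It measured 38.3 and 58.9 CPM in the baseline CTL mice, 69.2 and 14.0 CPM in the baseline butyrate mice, 50.4 and 81.4 CPM in lesional CTL skin, and 19.4 and 44.6 CPM in lesional butyrate skin. Each neighbouring pair of groups overlapped when ordered by mean, and the lowest mouse was baseline butyrate mouse 3. Both lesional butyrate mice were below both lesional CTL mice.

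The granule genes were not detectable in most mice. Ltf (chromosome 9, from 111019271 to 111042767) had 4, 0, 1, 1, 1, 6, 2 and 1 counts in the 8 mice in the order used above, that is 7 counts over the lesional CTL group and 3 over the lesional butyrate group. Ngp (chromosome 9, from 110419747 to 110423012) had 0 counts in both baseline CTL mice, 1 and 0 in the baseline butyrate mice, 5 and 10 in the lesional CTL mice and 0 in both lesional butyrate mice. From summed counts, with 3 counts over the group in place of 0, Ngp was at least 4.46-fold higher in lesional than in baseline CTL skin and at least 5.25-fold higher in lesional CTL than in lesional butyrate skin. These 2 values leave out the counting error of the 15 counts in lesional CTL skin and are not confidence limits. Neither gene passed the filter on low counts, and no test is given for them. The name granule genes describes the function of Ltf and Ngp and not their level. More than 3 counts were found for Ltf only in baseline CTL mouse 1 and lesional CTL mouse 5. For Ngp they were found only in both lesional CTL mice. The defining neutrophil marker Ly6g was likewise at 0 to 5 counts (2 and 5 in the lesional CTL mice).

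**Figure D1:**
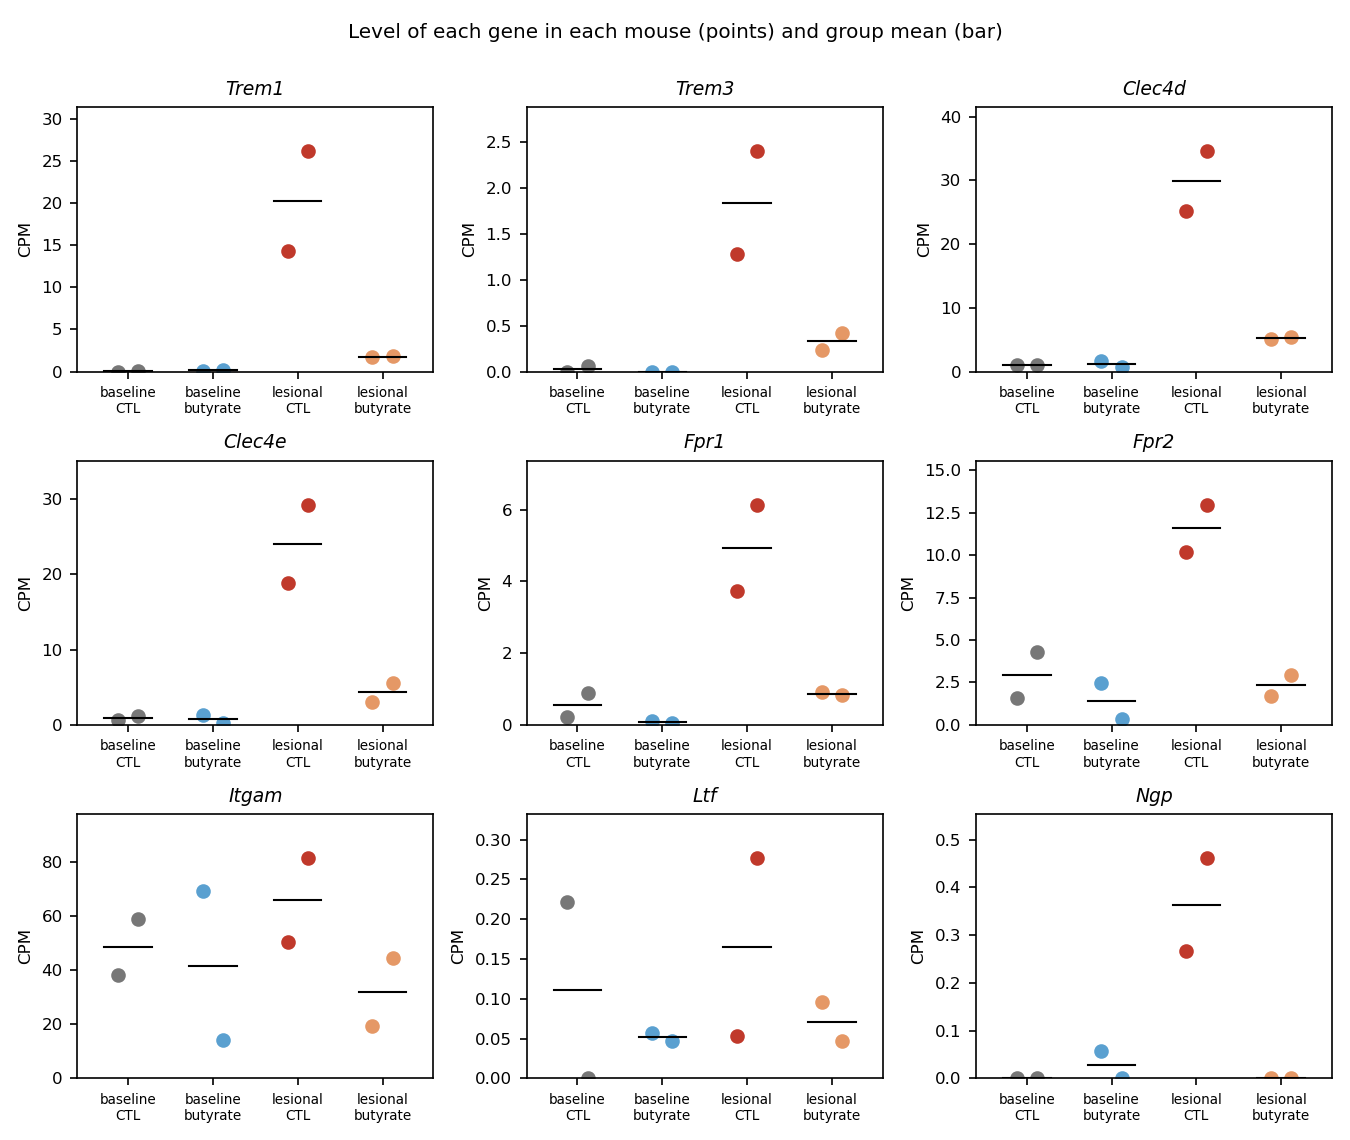
Level of the 9 genes in CPM (linear vertical axis, 1 panel per gene), with 1 point per mouse for the 4 groups and a bar at the group mean. Trem1, Clec4d and Clec4e rose from near 0 to between 14.4 and 34.6 CPM in lesional CTL skin and lay between 1.67 and 5.58 CPM in lesional butyrate skin, while Ltf and Ngp stayed below 0.5 CPM.

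Levels were compared between genes only per kilobase of exon. In lesional CTL skin Clec4d was highest with 18.7 ± 4.12 CPM per kilobase (SD, n = 2), followed by Itgam (13.1 ± 4.36), Fpr2 (8.93 ± 1.51), Trem1 (6.76 ± 2.79), Clec4e (4.84 ± 1.47), Fpr1 (3.73 ± 1.28) and Trem3 (1.85 ± 0.796). The ranges over the 2 mice overlapped for Clec4d and Itgam, for Fpr2 and Trem1, for Trem1 and Clec4e and for Clec4e and Fpr1. All genes were measured in the same 2 mice, and the order was the same within each of them. Itgam and Fpr2 lay next to each other without overlap, and Fpr1 was above Trem3 in both mice. In baseline CTL skin Itgam led with 9.67 ± 2.91 CPM per kilobase, ahead of Fpr2 with 2.27 ± 1.45 and Clec4d with 0.66 ± 0.000577. Itgam also led in lesional butyrate skin (6.37 ± 3.56), ahead of Clec4d (3.31 ± 0.128). With the longest transcript in place of all exons the order was the same in every group.

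The first comparison asked how HDM exposure changed the genes in CTL mice. Of 15163 tested genes, 7 were members, and 5 of these rose (Trem1, Trem3, Clec4d, Clec4e and Fpr1) by edgeR's quasi-likelihood test. A gene counts as called where its p, adjusted after Benjamini and Hochberg over all tested genes (FDR), is below 0.1 and its change exceeds 2-fold. Among all tested genes 2.37% were called higher. The median log2 fold change was 4.71 for the 7 tested members and -0.02 for all tested genes. Members that passed the filter only through lesional skin had to differ, so these counts describe the genes and do not stand for all 9.

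The log2 fold change was 8.36 for Trem1 (SE 0.85, FDR 0.023 by edgeR), and by summed counts, 836 against 2, the level was 373-fold higher with a 95% exact interval of 103 to 3081 that covers counting error only. Clec4d rose by 4.82 (SE 0.43, FDR 0.015 by edgeR), which is the most precise of the 5, and Clec4e by 4.71 (SE 0.72, FDR 0.0413). Trem3 rose by 5.76 (SE 0.92, FDR 0.0574), on 76 against 1 counts, 67.7-fold with an interval of 11.8 to 2710.3. Fpr1 rose by 3.14 (SE 0.63, FDR 0.0731). Fpr2 had a log2 fold change of 1.97 (SE 0.82, FDR 0.256) and Itgam of 0.44 (SE 0.75, FDR 0.763), and neither was called. In 6 of 7 tested members, all but Itgam, both lesional CTL mice were above both baseline CTL mice, and 36.7% of all tested genes showed this.

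These calls depended on the mice in the fit. With only the 4 CTL mice compared, 6.49% of genes were called higher and Fpr2 joined the 5 genes (FDR 0.0183 by edgeR), as it did without either baseline butyrate mouse. Without lesional butyrate mouse 3 or 4, only Trem1 and Clec4d were called, against 0.505% and 0.556% of all genes. Without lesional CTL mouse 4 or 5, no member was called, against 0.102% and 0.141%, and without baseline CTL mouse 1 or 2, no member and 0% of genes were called higher (1314 and 1560 genes had an unadjusted p below 0.05 by edgeR). The log2 fold changes stayed positive in all of these fits. With 2 mice per group, an exact permutation test, two-sided and run gene by gene, has 0.333 as its smallest p.

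The same comparison in butyrate mice asked whether the genes moved with HDM under treatment. No member was called by edgeR, against 0.277% of genes called higher. By the same test 5 of the 7 tested members had an unadjusted p below 0.05, as had 1993 of all 15163 tested genes. The log2 fold change was 3.48 for Trem1 (SE 0.74, FDR 0.191), 2.25 for Clec4d (SE 0.40, FDR 0.148), 2.47 for Clec4e (SE 0.70, FDR 0.271), 3.38 for Fpr1 (SE 0.85, FDR 0.235), 0.72 for Fpr2 (SE 0.85, FDR 0.773) and -0.38 for Itgam (SE 0.76, FDR 0.87). Trem3 went from 0 to 14 summed counts and was at least 4.3-fold higher, against 3 counts over the group. That value leaves out the counting error of the 14 counts and is not a confidence limit. In Trem1, Trem3, Clec4d, Clec4e and Fpr1 both lesional butyrate mice were above both baseline butyrate mice, which 16.4% of tested genes showed. DESeq2 called these 5 genes (2.55% of genes called higher). Without baseline butyrate mouse 3, edgeR called Trem1 and Clec4d (2.5% of genes), and without mouse 1 it called 6 members, all but Itgam (11.1% of genes).

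The main comparison asked whether butyrate changed the genes in lesional skin. All 7 tested members were lower with butyrate, with a median log2 fold change of -2.48 against -0.01 for all tested genes, but by edgeR's quasi-likelihood test on all 8 mice no member was called lower, as was the case for 0% of tested genes (734 genes had an unadjusted p below 0.05, while limma-voom called 1 gene and DESeq2 124). Trem1 had a log2 fold change of -3.52 (SE 0.58, FDR 0.737), the largest of the 7. Clec4d (-2.50, SE 0.38, FDR 0.737), Clec4e (-2.48, SE 0.63, FDR 0.737), Fpr1 (-2.49, SE 0.60, FDR 0.737), Trem3 (-2.47, SE 0.64, FDR 0.823) and Fpr2 (-2.31, SE 0.83, FDR 0.951) lay close together, and Itgam had -1.04 (SE 0.76, FDR 1.00). By summed counts Trem1 was 11.7-fold higher in lesional CTL than in lesional butyrate skin (interval 9.24 to 15.0), and Trem3, Clec4d, Clec4e, Fpr1 and Fpr2 were 5.01- to 5.76-fold higher. In 7 of 7 tested members both butyrate mice were below both CTL mice, which 22.5% of all tested genes showed. Trem3 passed the filter on low counts only through lesional CTL skin, with 24 and 52 counts against 5 and 9. Its direction in this comparison was therefore set by the filter. The counts of 7 and the median include it, so they describe the genes only.

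**Figure D2:**
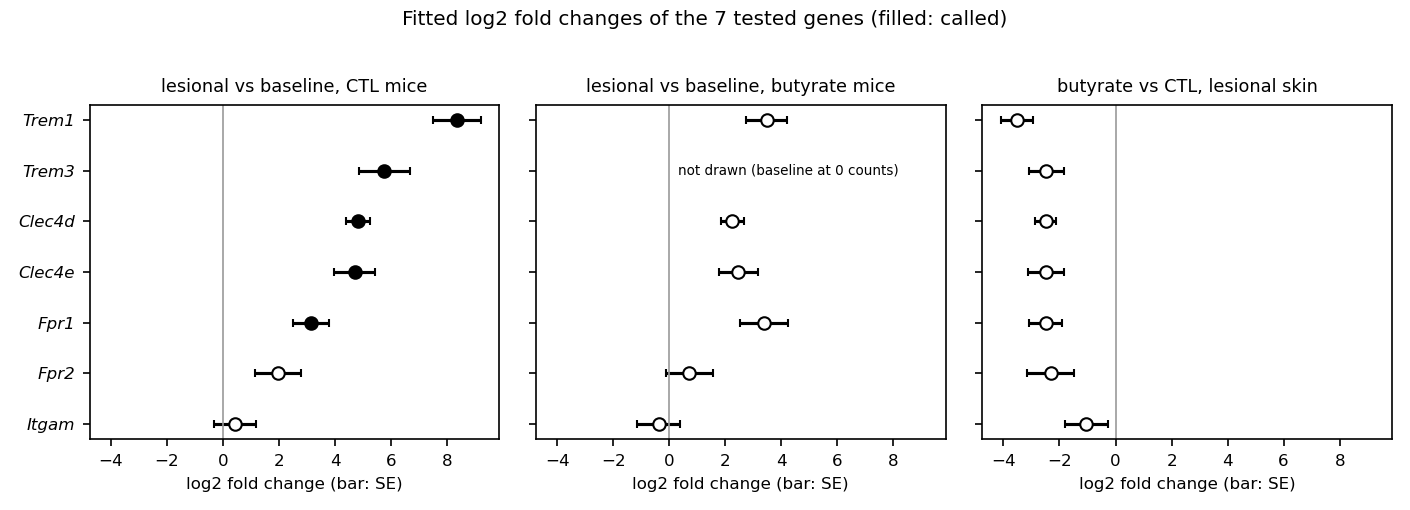
Fitted log2 fold changes (points, horizontal axis) with their standard errors (bars) for the 7 tested genes in 3 comparisons, filled where called by edgeR. In CTL mice 5 genes are filled with log2 fold changes of 3.14 to 8.36, and in the comparison of butyrate with CTL in lesional skin the 7 open points lie between -3.52 and -1.04. Trem3 is not drawn in butyrate mice, where baseline skin held 0 counts.

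The call in lesional skin depended on the mice in the fit and on the tool. Without baseline butyrate mouse 3, edgeR called Trem1 (FDR 0.0434), Clec4d (FDR 0.024) and Clec4e (FDR 0.0679) lower, against 0.886% of genes, and without mouse 1 it called these 3 genes too, against 0.874%. The log2 fold changes differed little from those with all mice (-3.52 for Trem1 in both). With only the 4 lesional mice, Clec4d was called (FDR 0.0738 by edgeR, 0.148% of genes lower), while Trem1 (FDR 0.1165) and Clec4e (FDR 0.1505) were not. DESeq2 on all 8 mice called Trem1 (FDR 1.17e-08), Clec4d (FDR 8.66e-08), Clec4e (FDR 0.0186) and Fpr1 (FDR 0.049), against 0.666% of genes. Each of the 8 fits that left out 1 mouse kept a negative log2 fold change in all 7 genes, from -3.88 to -3.02 for Trem1 and from -1.77 to -0.56 for Itgam.

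In baseline skin, butyrate was compared with CTL before any allergen. No member was called by edgeR, and 0% of tested genes were called (529 had an unadjusted p below 0.05, limma-voom called 0 and DESeq2 58). Fpr1 had a log2 fold change of -2.74 (SE 0.89, FDR 0.714), on 3 against 20 counts, or 7.24-fold lower with an interval of 2.15 to 38.1. Of the 20 counts 16 came from baseline CTL mouse 2, and the log2 fold change was -1.44 without this mouse and -3.41 without mouse 1. Trem1 had 1.36 (SE 1.19), Clec4d 0.07 (SE 0.43), Clec4e -0.24 (SE 0.74), Fpr2 -1.06 (SE 0.85) and Itgam -0.22 (SE 0.75), while Trem3 was at or under 3 counts in both groups. The sign of Clec4d, Clec4e and Itgam turned with the mouse left out: Itgam had 0.51 without baseline butyrate mouse 3 and -1.77 without mouse 1, and in the latter fit Fpr1, Fpr2 and Itgam were called lower by edgeR, against 14.7% of genes. Between the 2 baseline butyrate mice Itgam differed 4.93-fold, Fpr2 6.63-fold, Clec4e 4.62-fold and Clec4d and Fpr1 2.41-fold, all lower in mouse 3. Trem1 went the other way, with 1 count in mouse 1 and 5 counts in mouse 3. The macrophage markers summed to 1767 CPM in mouse 1 and 432 CPM in mouse 3.

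The last comparison set the effect of butyrate in lesional skin against that in baseline skin. No member was called by edgeR's quasi-likelihood test, and 0% of tested genes were called (703 had an unadjusted p below 0.05, limma-voom called 0 and DESeq2 37). The difference of the log2 fold changes was -4.88 for Trem1 (SE 1.32, FDR 0.84) and -2.57 for Clec4d (SE 0.57, FDR 0.84), the only 2 with an unadjusted p below 0.05. DESeq2 called these 2 (0.191% of genes lower), as did edgeR without baseline butyrate mouse 1 (8.59%). In that edgeR fit mouse 3, which stood apart, was the only baseline butyrate mouse. Without mouse 3 instead, edgeR called neither gene, with differences of -3.54 for Trem1 and -3.07 for Clec4d. With all 8 mice the difference was -2.23 for Clec4e (SE 0.97), -1.25 for Fpr2 (SE 1.17), -0.82 for Itgam (SE 1.07) and 0.24 for Fpr1 (SE 0.85). It is not given for Trem3, which had 1 count in baseline skin.

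**Figure D3:**
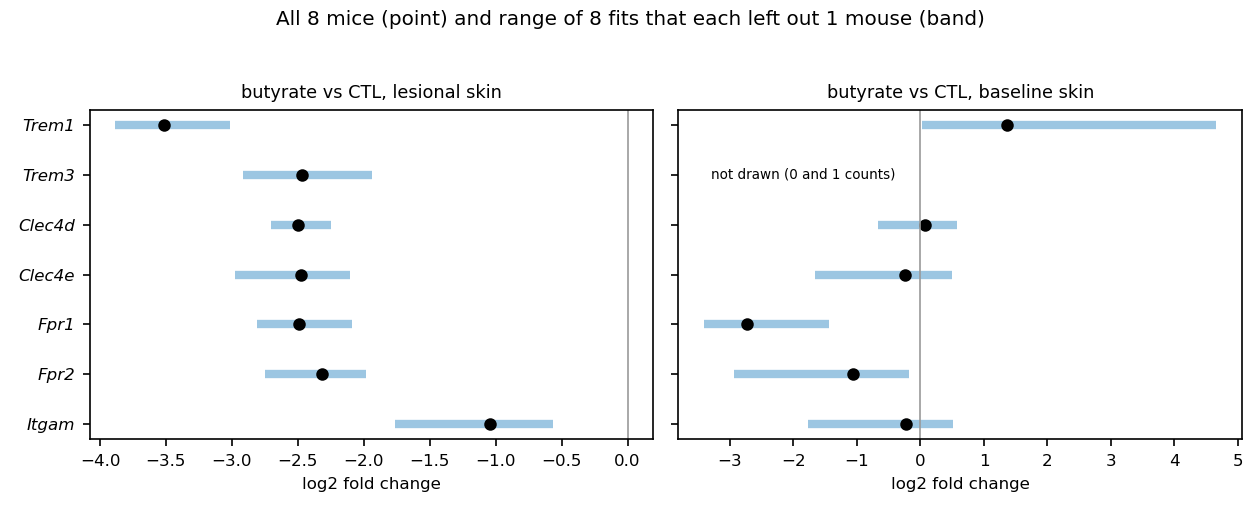
Log2 fold change of butyrate against CTL with all 8 mice (point) and the range of the 8 fits that each left out 1 mouse (band), in lesional skin (left) and baseline skin (right). In lesional skin all bands lie below 0, and in baseline skin those of Clec4d, Clec4e and Itgam cross 0. Trem3 is not drawn in baseline skin, where it held 0 and 1 counts over the groups.

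Of the other genes of the Trem family 3 of 4 listed genes were tested, and in CTL mice with HDM 1 of them rose, Treml4, with a log2 fold change of 5.15 (FDR 0.030 by edgeR). Trem2, a receptor of macrophages, had 1.72 (FDR 0.232). Of the Dectin-2 family 5 of 7 listed genes were tested and none was called, with a median of 0.70. Clec4n (Dectin-2) had 2.08 (FDR 0.113 by edgeR), while Clec4b1 went the other way (-1.29, FDR 0.342). The 14 genes of adaptors and signalling, which include Tyrobp, Fcer1g, Syk, Card9 and Malt1, were all higher in lesional than in baseline CTL skin, with a median of 0.82, and none was called. Of all 15163 tested genes 7377 were higher. In the comparison of butyrate with CTL in lesional skin all 14 were lower with a median of -0.64, and none was called. Of all tested genes 7723 were lower. Tyrobp, the partner of TREM1, measured 25.7 and 35.1 CPM in baseline and 56.3 and 63.5 CPM in lesional CTL skin. It was present at this level in baseline skin, where Trem1 was near the floor.

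Among the partners and ligands, Itgal, the alpha chain of LFA-1, rose by 2.38 in CTL mice with HDM (FDR 0.061 by edgeR), while Itgb2, the shared beta chain, had 0.74 (FDR 0.522) and Icam1 had 0.82 (FDR 0.116). Of 5 tested ligands, Saa3, a serum amyloid A, rose by 5.87 (FDR 0.0372) from 1.28 and 1.94 CPM to 105 and 83.4 CPM. In lesional butyrate skin it measured 15.0 and 17.3 CPM. Anxa1, encoding annexin A1, remained between 725 and 931 CPM in all 8 mice. Hmgb1 and Sap130, encoding nuclear proteins released by dying cells, were not called in any comparison.

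Granule genes beyond Ltf and Ngp were taken from lists of 2 granule types. Of the secondary and tertiary granule genes 11 of 12 were tested, 5 rose in CTL mice with HDM and none fell, with a median of 2.78. The 5 were Lcn2 (4.90), Mmp8 (4.81), Slpi (4.17), Mmp9 (3.75) and Hp (1.71), of which keratinocytes can also make Lcn2 and Slpi. Hp was already at 86.9 and 157 CPM and Mmp9 at 9.22 and 9.27 CPM in the baseline CTL mice. Which cells made these transcripts was not tested. In butyrate mice Lcn2 alone rose (3.59, FDR 0.0709 by edgeR). Of the primary granule genes 3 of 5 were tested and none was called, Mpo being at 0 to 4.67 CPM and Elane at 0.0461 to 0.372 CPM. Camp, a secondary granule gene that encodes a ligand of Fpr2, was at 0 to 0.419 CPM. Low Camp, Ltf, Ngp and Elane levels were found in the same lesional CTL mice in which Mmp8 reached 5.98 and 17.7 CPM.

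Markers of neutrophils and of other cells differed in how far they moved with HDM in CTL mice. Beside 4.71 for the tested members, the median log2 fold change was 4.81 for neutrophil and 0.51 for macrophage and monocyte markers. It was 1.44 for eosinophil and mast cell, 0.36 for dendritic cell and -1.18 for erythrocyte markers. Of the neutrophil markers 9 of 10 were tested and 7 rose in CTL mice with HDM, where 2.37% of all tested genes were called higher. Among the 7 were S100a9 (8.43) and the chemokine receptor Cxcr2 (4.65). Not called were Cd177 (2.78, FDR 0.294 by edgeR) and Il1r2, which went the other way (-0.47, FDR 0.518). In butyrate mice Cxcr2 (3.46) and S100a9 (6.39) rose. With butyrate in lesional skin 9 of 9 were lower, with a median of -1.84, and none was called, while 7723 of all 15163 tested genes were lower. Cxcr1 had 21 counts in each lesional CTL mouse and 7 and 11 in the lesional butyrate mice. It reached the minimum count of 10 in both mice of a group only in lesional CTL skin, so its direction was largely set by the filter. The list summed to 38.9 to 80.6 CPM in baseline skin, to 2696 and 1700.5 CPM in lesional CTL mice 4 and 5 and to 813 and 379 CPM in lesional butyrate mice 3 and 4, with Ly6g at or near 0. Most of the sum in lesional skin came from S100a8 and S100a9, which keratinocytes can also make. Without these 2 genes the sum was 27.3 to 74.9 CPM in baseline skin, 231 and 286 CPM in lesional CTL mice 4 and 5 and 103 and 108 CPM in lesional butyrate mice 3 and 4. In baseline skin most of this sum was Il1r2, at 65.7 and 62.6 CPM in the CTL mice, against 42.5 and 50.5 CPM in lesional CTL skin. Lesional CTL mouse 5 was higher than mouse 4 in all 9 receptor and granule genes, by 1.27- to 1.87-fold in the 7 receptors. Of the 9 tested neutrophil markers 6 were also higher in mouse 5, and S100a8, S100a9 and Cxcr1 were higher in mouse 4.

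Of the 12 macrophage and monocyte markers, 1 was called in CTL mice with HDM, Cd14 (2.51, FDR 0.066 by edgeR). All 12 markers were lower with butyrate in lesional skin, as were 7723 of all 15163 tested genes, with a median of -0.55 for the markers and no call. Their sum was 1763 and 2060.4 CPM in lesional CTL skin against 938 and 1707 CPM in lesional butyrate skin, where mouse 4 was the higher one. Mouse 4 was also the higher one for every tested member but Fpr1, from 1.06-fold for Clec4d to 2.30-fold for Itgam. Of the eosinophil and mast cell markers 3 of 6 tested rose in CTL mice with HDM (Ccr3, Cma1 and Tpsb2), and Epx was at 0 in all mice. Of 5 tested erythrocyte markers none was called in any comparison. The part of these cells in the levels of the receptors was not tested.

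**Figure D4:**
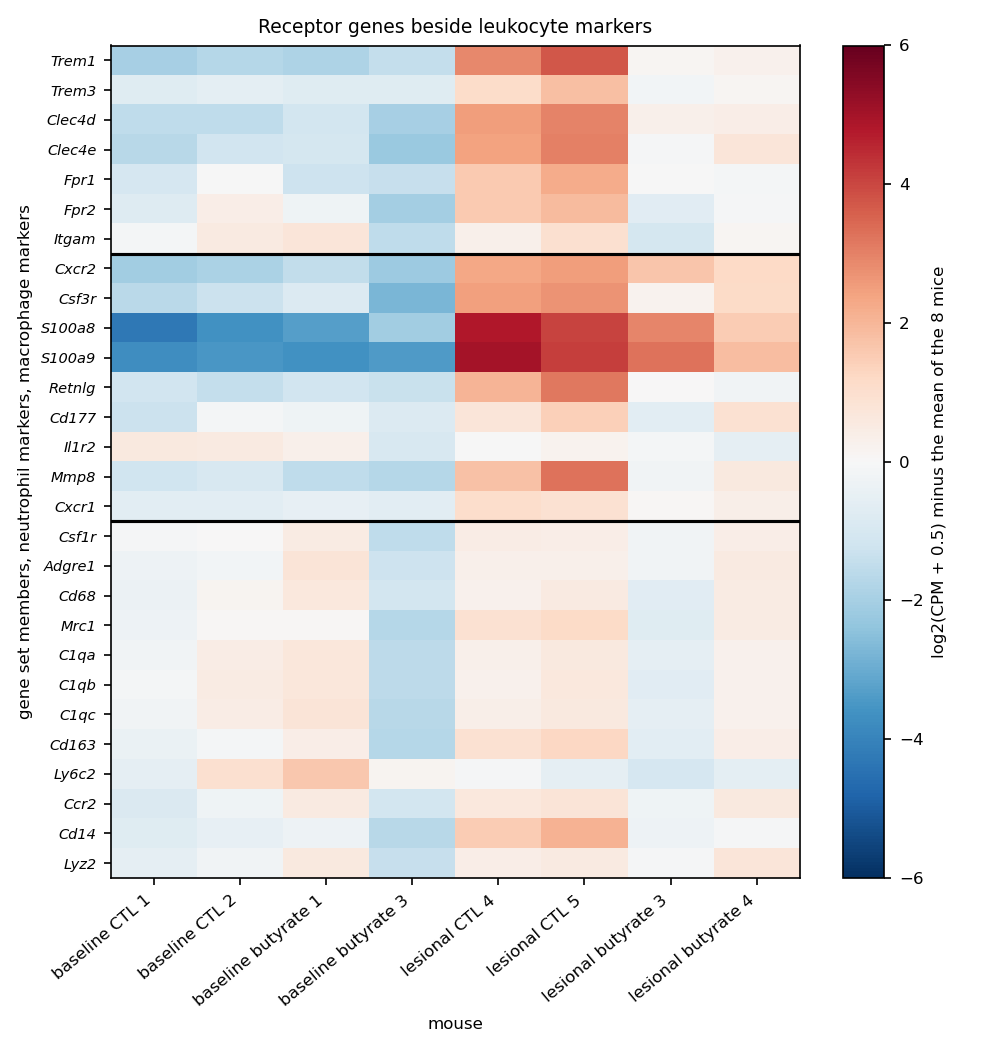
Log2(CPM + 0.5) minus the mean of the 8 mice (colour, blue low and red high) for the 7 tested genes (top), the 9 tested neutrophil markers (middle) and the 12 macrophage and monocyte markers (bottom), with 1 column per mouse. The receptors other than Itgam are red in lesional CTL mice 4 and 5, as are most neutrophil markers, and Itgam and 11 of the 12 macrophage markers, all but Ly6c2, are blue in baseline butyrate mouse 3.

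The genes whose pattern over the 8 mice was most like that of a member were found by the root-mean-square difference of centred log2(CPM + 0.5), among genes with a mean of at least 1 CPM. The nearest genes to Trem1 were Irg1, the enzyme that makes itaconate in activated macrophages (0.225), Cd300lf, a myeloid inhibitory receptor (0.474), and Clec4d (0.483), against a median of 2.1 over all genes compared. Irg1 measured 0 and 0.277 CPM in the baseline CTL mice, 15.3 and 25.7 CPM in lesional CTL skin, and 1.15 and 1.49 CPM in lesional butyrate skin. Clec4d and Clec4e were close to each other (0.254), with Cd300lf and Il6 near Clec4d (0.249 and 0.259) and Timp1 and Cd300lf near Clec4e (0.258 and 0.266). The nearest genes to Fpr1 were Siglece, Il4ra and Nlrp12 (0.351 to 0.378) and to Fpr2 Siglece, Trim30b and Tmem8 (0.354 to 0.373).

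Itgam followed other genes. Its nearest were the chemokine Ccl6 (0.156), Cfp, which encodes properdin of the complement system (0.172), and Trim30a (0.187), against a median of 0.854, and its difference from Trem1 was 1.97. Ccl6 measured 161 and 259 CPM in the baseline CTL mice and 258 and 50.9 CPM in the baseline butyrate mice, with the low value in mouse 3 as for Itgam. Trem3, with few counts, was nearest to Serpina3m, Pdpn and Serpina3n (0.237 to 0.272). The measure compares the 8 mice only and depends on the size of the change.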

How the data were processed

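The labels give each mouse's group, and their protocol names the SCFA treatment as sodium butyrate. The authors aligned reads of TruSeq libraries with STAR 2.5.2 to GRCm38 through RNASik and counted them per gene with featureCounts, and they deposited raw counts of protein-coding genes without normalization, made with the reverse-strand setting. All other values were computed from these counts. Of 8 libraries, totals were 18004136 to 21085544 counts.

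Models were fitted to all 8 mice by quasi-likelihood in edgeR (4.0.16, R 4.3.3, robust glmQLFit), with TMM normalization, filterByExpr (minimum count 10) and a prior count of 0.125, and 15163 of 22740 genes were tested. A gene was called at FDR below 0.1 over all tested genes and a fold-change above 2. The SE is the log2 fold change divided by the square root of F. Residual degrees of freedom were 4. Replicates were separate mice. The same contrasts were rerun with DESeq2 (1.42.0) and limma-voom (3.58.1), RLE size factors, no filter, no robust estimation, other prior count and thresholds, only the mice compared, and fits without 1 mouse. Fits without both baseline butyrate mice and limma-voom on 4 mice were added after seeing the data. Exact intervals are Clopper-Pearson intervals at 95% on summed counts, conditional on their total, and cover counting error only. The fits were tested on simulated data with the same spread for every gene and no mouse that stood apart. That test does not cover a mouse like baseline butyrate mouse 3.

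Genes and lists were matched by symbol, 3 of them by identifier (123 of 125 list symbols had a row), and coordinates and exon lengths come from GENCODE vM21 on GRCm38. The members and lists were chosen with earlier results of these data known. Text names all members, from each list the called genes and otherwise at most 4 with the highest mean, and 3 like genes per tested member. Other genes named were chosen after their values were seen. Promoters are RefSeq sequences on GRCm38.p6.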

Additional observations from a re-analysis of the deposited data

How the results depend on the processing

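No paired analysis was possible because the groups compared share fewer than 2 replicate numbers. In lesional skin butyrate against CTL kept a negative log2 fold change for the 7 tested members in every alternative. For Trem3, which passed the filter only through lesional CTL skin, the filter set this sign wherever it was used. Counted per gene and alternative, 112 results stayed on the same side of the threshold and 14 passed it. In CTL mice lesional against baseline skin kept its sign in every alternative. Counted in the same way, 26 results lost a call and 5 gained one.

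Called genes in lesional skin with butyrate were 1 with limma-voom, 124 with DESeq2 (4 members), 25 with only the 4 mice compared (1 member), 14 with limma-voom on these 4, and 188 (3 members) without both baseline butyrate mice. DESeq2 called 58 genes in baseline skin. For lesional against baseline skin in CTL mice, called genes were 1093 with DESeq2, 1918 with 4 mice, 1913 with limma-voom on 4 mice and 1860 without both baseline butyrate mice. In butyrate mice they were 698 with DESeq2 (5 members) and 0 with 4 mice by either tool (681 and 701 genes had an unadjusted p below 0.05). For the difference of the butyrate effects DESeq2 called 37 genes (2 members).

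Over fits without 1 mouse each, called genes were 0 to 191 in lesional skin with butyrate, 0 to 3777 in baseline skin with butyrate, 0 to 1936 for HDM in CTL mice, 0 to 2990 for HDM in butyrate mice and 0 to 3275 for the difference, with 0 to 3, 0 to 3, 0 to 6, 0 to 6 and 0 to 2 members. The highest gene counts were reached without baseline butyrate replicate 1, where 15677 genes were tested and 1 mouse remained in its group. The member counts are to be read beside these gene counts.

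Signs turned in comparisons where no member was called. In baseline skin with butyrate, log2 fold changes without 1 mouse were -0.66 to 0.58 for Clec4d, -1.66 to 0.50 for Clec4e and -1.77 to 0.51 for Itgam. Clec4d was -0.066 with limma-voom and -0.048 with limma-voom on 4 mice. For HDM in butyrate mice Fpr2 was -0.090 to 2.60 and Itgam -1.11 to 1.17. For the difference Fpr1 was -1.06 to 0.91, Fpr2 -2.13 to 0.62 and Itgam -1.55 to 0.73, and Fpr1 was -0.17 with limma-voom and -0.51 with a prior count of 2. The cause was not tested.

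With 2 mice per group, 4 residual degrees of freedom and genes near the floor of 3 counts (Trem1 and Trem3 in baseline skin, Ltf and Ngp throughout), the size of these fold changes is not well fixed, and in fits without 1 mouse the remaining mouse of its group is assumed to vary like the others.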
